A study of Homo sapiens with 42 samples.

Results

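Chromosome 17 carried 939 of the 33914 chromatin loops of the deposited table, all with both anchors on that chromosome. They were taken from the table by chromosome alone, but the chromosome itself was chosen by its measured 72 h against 0 h fold changes: its loops fell at 72 h, and it held the largest single falls. Values of 72 h against 0 h are therefore given as a description, without p-values, and counts past the threshold are not read as a result. The comparison of 6 h with 0 h shares the 0 h libraries with that choice, and the comparison of 72 h with 6 h shares the 72 h libraries. The direction and the largest falls of that later step were therefore partly set by the choice.

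The loops were measured by in situ Hi-C, in which neighbouring DNA ends in fixed nuclei are joined and the sequenced pairs are counted as contacts. The cells were K562, an established human leukemia line, wild type by its label, in which the phorbol ester PMA induces megakaryocyte differentiation. Untreated cells (0 h) were compared with cells kept in 25 nM PMA for 6 h or 72 h, with 4 biological replicates per time and 42 sequenced samples in all. All groups came from 1 line, contact counts carry no expression level, and the cell type was therefore not checked against marker genes.

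A chromatin loop brings a pair of distant sites, its anchors, into frequent contact. Most strong loops form where cohesin, a ring complex that extrudes DNA, stops at CTCF bound in facing orientation, and others join promoters with enhancers. Chromosome 17 is among the most gene-rich human chromosomes and holds the HOXB cluster, the type I keratins, the CC chemokines and the genes of both chains of the platelet fibrinogen receptor.

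The promoters below are shown because they lie in an anchor of a loop that fell at 6 h. SCRN2 (a secernin), GDPD1 (a glycerophosphodiester phosphodiesterase) and MYO1D (an unconventional myosin) are the named protein-coding genes with a promoter in an anchor of the 5 largest falls. SPACA3 (a sperm acrosome protein) and HEXIM1 (an inhibitor of the elongation factor P-TEFb) were chosen after their sequences were seen, because they hold a searched motif. Each sequence runs 5′ to 3′ on the strand of the gene, from 250 bases before to 50 bases after the start of the transcript, and comes from RefSeq on GRCh38.p14. Capitals mark an AP-1 motif (TGANTCA) or a GATA motif (AGATAA), and a sequence with no capitals holds neither pattern. Other forms of the GATA motif were not searched, such as the TGATAA in the SPACA3 sequence, which stays in lower case. The SCRN2 promoter lies at chr17:47841224-47841523, minus strand, that of GDPD1 at chr17:59220261-59220560, plus strand, that of MYO1D at chr17:32877075-32877374, minus strand, that of SPACA3 at chr17:32992601-32992900, plus strand, and that of HEXIM1 at chr17:45148225-45148524, plus strand.
SCRN2: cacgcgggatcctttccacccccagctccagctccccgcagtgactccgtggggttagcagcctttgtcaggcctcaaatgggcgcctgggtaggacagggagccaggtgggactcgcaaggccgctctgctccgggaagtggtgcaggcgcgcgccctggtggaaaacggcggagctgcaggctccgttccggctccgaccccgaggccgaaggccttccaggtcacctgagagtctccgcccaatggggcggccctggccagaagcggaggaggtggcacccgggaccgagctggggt
GDPD1: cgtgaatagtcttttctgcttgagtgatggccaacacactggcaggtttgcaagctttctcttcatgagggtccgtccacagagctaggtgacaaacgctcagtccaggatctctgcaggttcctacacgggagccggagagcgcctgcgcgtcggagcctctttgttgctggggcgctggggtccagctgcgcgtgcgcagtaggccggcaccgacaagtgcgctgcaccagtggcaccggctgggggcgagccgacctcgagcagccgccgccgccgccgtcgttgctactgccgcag
MYO1D: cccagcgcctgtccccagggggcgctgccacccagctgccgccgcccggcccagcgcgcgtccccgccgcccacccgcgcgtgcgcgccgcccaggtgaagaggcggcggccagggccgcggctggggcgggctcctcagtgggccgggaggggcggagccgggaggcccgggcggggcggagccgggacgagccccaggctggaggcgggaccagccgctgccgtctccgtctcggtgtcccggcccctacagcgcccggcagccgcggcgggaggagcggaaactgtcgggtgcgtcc
SPACA3: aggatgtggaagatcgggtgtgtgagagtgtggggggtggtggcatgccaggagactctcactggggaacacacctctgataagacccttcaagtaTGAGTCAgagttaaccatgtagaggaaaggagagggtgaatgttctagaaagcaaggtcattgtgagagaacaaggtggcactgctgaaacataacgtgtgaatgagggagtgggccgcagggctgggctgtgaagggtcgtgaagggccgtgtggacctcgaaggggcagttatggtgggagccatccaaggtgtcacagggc
HEXIM1: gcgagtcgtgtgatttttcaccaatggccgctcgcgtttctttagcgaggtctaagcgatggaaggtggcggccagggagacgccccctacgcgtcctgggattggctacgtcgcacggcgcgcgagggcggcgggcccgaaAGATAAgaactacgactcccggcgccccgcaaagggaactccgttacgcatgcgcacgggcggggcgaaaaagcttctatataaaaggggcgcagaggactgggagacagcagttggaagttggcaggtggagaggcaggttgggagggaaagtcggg

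The microRNA gene MIR10A lies in an anchor of a HOXB loop that also fell at 6 h. Its mature miR-10a-5p (chr17:48579904-48579926, minus strand) is shown with its seed, bases 2 to 8, in capitals.
hsa-miR-10a-5p: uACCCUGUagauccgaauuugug

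The 939 loops ran from chr17:140001 to chr17:83200000 and spanned 30 kb to 3900 kb, with a median of 230 kb against 440 kb over the whole table. The short arm held 316 and the long arm 623, split at 25 Mb, and 0 loops spanned both arms. They used 1286 anchors of 10 kb, of which 862 served a single loop and 120 served 3 or more. The busiest anchor, chr17:20790001-20800000, served 8. An end of a protein-coding gene lay in 369 anchors (28.7%), and a promoter in 261 (20.3%). Of the 939 loops, 859 (91.5%) had enough contacts for a test, and the other 80 were longer, with a median of 715 kb.

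The 12 libraries held 736929 to 1472197 contacts in all loops and 33363 to 69292 on chromosome 17. The median tested loop had a mean count of 43, for which the exact 95% Poisson interval is 31.1 to 57.9 and covers counting error only. Between replicates 3 and 4 no difference in excess of sampling noise was detected at 72 h (chi-square divided by its degrees of freedom 1.0002, p = 0.489) or, closer to the threshold, at 0 h (1.014, p = 0.0591). Each such pair was counted as 1 sample in the means ± SD. At 6 h the chi-square of replicates 3 and 4 was nearly the same as at 0 h, but just passed the threshold of 0.05 (1.016, p = 0.0327). That pair was therefore kept as separate samples, by a small margin. The means below therefore have n = 3 at 0 h and 72 h and n = 4 at 6 h, while the fits kept 12 libraries. The labels call the replicates biological without saying how they were grown, so p-values measure the spread between these libraries, which may be technical.

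Chromosome 17 held a smaller share of all loop contacts at 72 h. Its share was 4.71%, 4.52%, 4.66% and 4.63% in the 0 h replicates 1 to 4, 4.52%, 4.43%, 4.53% and 4.61% at 6 h, and 4.15%, 4.08%, 4.19% and 4.18% at 72 h. All libraries of 72 h lay below all others, whereas those of 0 h and 6 h overlapped. The means were 4.62% ± 0.094 (SD, n = 3), 4.52% ± 0.071 (n = 4) and 4.14% ± 0.053 (n = 3). From 0 h to 6 h the share fell by 0.102 percentage points, within the spread (two-sided exact permutation test, p = 0.229, or 0.438 adjusted over 23 chromosomes). From 6 h to 72 h it fell by 0.384 points, which gave p = 0.0571, the smallest that 3 against 4 samples allow, or 0.0821 adjusted. Within replicates 1 and 2 the shares were 4.61%, 4.48% and 4.11% at 0 h, 6 h and 72 h, and within replicates 3 and 4 they were 4.64%, 4.57% and 4.19%.

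**Figure D1:**
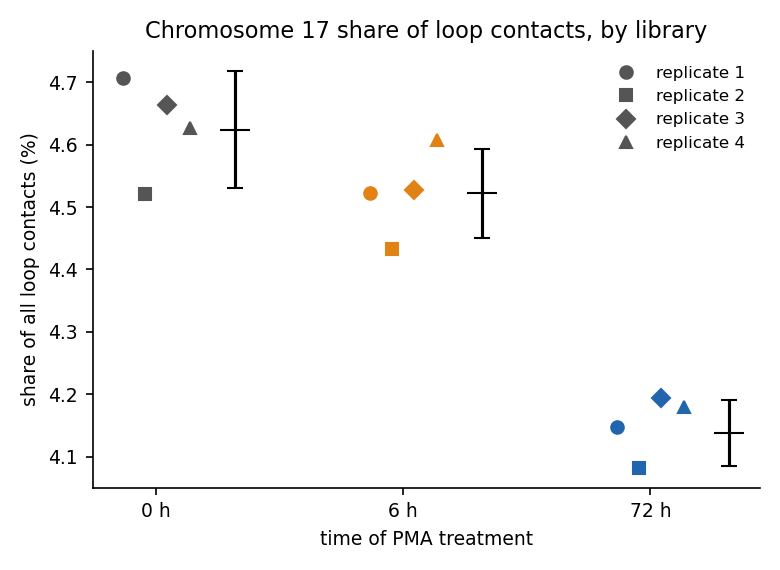
Share of all loop contacts held by chromosome 17 (percent, vertical axis, not starting at 0) in each library at 0 h, 6 h and 72 h; symbols mark replicates 1 to 4, and the black bars give mean ± SD with n = 3, 4 and 3. The 72 h libraries sit between 4.08% and 4.19%, below all 0 h and 6 h libraries, which overlap.

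The fall from 6 h was not limited to chromosome 17. Chromosome 19 went from 4.21% ± 0.179 (SD, n = 4) at 6 h to 3.79% ± 0.096 (n = 3) at 72 h, chromosome 22 from 2.49% ± 0.022 to 2.32% ± 0.038, and chromosome 18 from 1.21% ± 0.0039 to 1.17% ± 0.011. Each of these gave the same exact permutation p = 0.0571 and adjusted p = 0.0821 as chromosome 17. Loop lengths differ between the chromosomes, and counts in the table changed with length, so shares were also taken within length classes. Among loops up to 200 kb, chromosome 17 held 5.80% ± 0.041 at 6 h and 5.43% ± 0.049 at 72 h, and among loops of 200 to 800 kb it held 3.28% ± 0.038 and 2.94% ± 0.095. These changes were -0.374 and -0.337 points, against -0.392 and -0.409 on chromosome 19. They were -0.0595 and -0.275 on chromosome 22, and -0.0023 and -0.0602 on chromosome 18. Above 800 kb chromosome 17 went from 0.97% ± 0.051 at 6 h to 0.87% ± 0.038 at 72 h (exact permutation p = 0.114).

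At 6 h of PMA more loops of chromosome 17 passed the test downward than upward, but not among those with a fold change of at least 1.5, of which 9 rose and 7 fell. Of the 859 tested loops, 59 passed an adjusted p of 0.05 at 6 h against 0 h in edgeR's quasi-likelihood test, or 6.87% against 6.41% of all tested loops. Of these, 46 fell (5.36%, with 4.07% in the whole table) and 13 rose (1.51%, with 2.34%). The median log2 fold change was -0.43 among those that fell and 0.74 among those that rose. Loops that fell had a median length of 80 kb and those that rose 350 kb. In 64 loops all 6 h libraries lay below all 0 h libraries (7.45%, with 5.77% in the whole table), and in 32 all lay above (3.73%, with 4.97%). The count rested on 2 libraries: it was 26 (3 rose, 23 fell) without 0 h replicate 1 and 29 (9 and 20) without 6 h replicate 2. It was 17 with DESeq2, of which 1 rose, and 27 (12 and 15) with a correction for loop length. Scaling to library totals gave 22 that rose and 31 that fell, and the median over all 859 loops, -0.03, turned to 0.02 with that scaling and to 0.01 with the length correction.

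The largest fall at 6 h joined chr17:45210001-45220000 to chr17:45630001-45640000, a loop of 420 kb whose second anchor lies inside LINC02210-CRHR1, a readthrough gene that includes the corticotropin-releasing hormone receptor CRHR1. Its normalized counts, that is contacts per 1000000 contacts in tested loops, were 36.9, 31.3, 30.1 and 40.9 at 0 h, 12.7, 12.1, 15.6 and 15.7 at 6 h, and 6.19, 12.05, 9.36 and 10.7 at 72 h, in the order of replicates 1 to 4. Every 6 h library lay well under every 0 h library, and every 72 h library lay below every 6 h library by a small margin. The log2 fold change at 6 h was -1.34 (SE 0.23, edgeR adjusted p = 1.46e-05), and the later step from 6 h to 72 h did not pass the test (log2 fold change -0.53, SE 0.30, adjusted p = 0.209). The loop of 210 kb that ends on the same second anchor was not called at 6 h (log2 fold change -0.08, SE 0.17, adjusted p = 0.845). Nor was the nearby loop of 110 kb starting inside MAP3K14, the kinase of noncanonical NF-kB signalling (log2 fold change -0.14, SE 0.10, adjusted p = 0.434). Close by, the loop of 50 kb with an end of HEXIM1 in its anchor, whose promoter with a GATA motif is printed above, fell (log2 fold change -0.39, SE 0.11, adjusted p = 0.0117).

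The second largest fall at 6 h was a loop of 170 kb (chr17:47840001-47850000 to chr17:48010001-48020000) with ends of SCRN2 and of SP6, a zinc-finger transcription factor of the Sp family, in its first anchor. Replicates 1 to 4 had normalized counts of 84.7, 66.5, 87.8 and 94.4 at 0 h, 45.1, 48.6, 45.3 and 53.1 at 6 h, and 39.8, 29.1, 48.9 and 39.3 at 72 h. The 0 h libraries stood above all others, and 6 h and 72 h overlapped. It fell at 6 h (log2 fold change -0.79, SE 0.14, adjusted p = 4.76e-05) with no further call from 6 h to 72 h (log2 fold change -0.29, SE 0.16, adjusted p = 0.204). From the same anchor a loop of 50 kb reaches SP2, a second Sp factor, and has the highest mean count of chromosome 17. This loop held 271 ± 33.2 at 0 h (SD, n = 3), 229 ± 38.3 at 6 h (n = 4) and 201 ± 11.9 at 72 h (n = 3), as normalized counts, and the change at 6 h missed the threshold (log2 fold change -0.27, SE 0.09, adjusted p = 0.0562).

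GDPD1 anchored the next fall, a loop of 70 kb (chr17:59220001-59230000 to chr17:59290001-59300000). It had 79.7, 82.6, 97.8 and 92.1 at 0 h, 48.0, 53.3, 58.0 and 54.3 at 6 h, and 50.4, 47.2, 38.5 and 37.5 at 72 h, as normalized counts. Again the 0 h libraries lay apart, above both later times (log2 fold change -0.71, SE 0.14, adjusted p = 1.45e-04 at 6 h). The adjacent anchor, with an end of SMG8, a factor of nonsense-mediated decay, holds a loop of 230 kb, with 64.5, 47.5, 52.7 and 52.3 at 0 h, 43.1, 43.0, 41.0 and 41.0 at 6 h, and 19.5, 30.1, 29.1 and 15.2 at 72 h, as normalized counts. All 6 h libraries lay below all 0 h libraries, although the difference missed the threshold (log2 fold change -0.38, SE 0.16, adjusted p = 0.133), and all 72 h libraries lay lower still (log2 fold change -0.87, SE 0.19, adjusted p = 3.37e-04). A loop of 60 kb with both anchors inside TNRC6C, a GW182 protein of microRNA silencing, fell in both steps. It went from 117 ± 15.9 (SD, n = 3) to 71.4 ± 3.71 (SD, n = 4) and then to 49.5 ± 5.90 (SD, n = 3). Both calls share the 6 h libraries (log2 fold change -0.71, SE 0.12, adjusted p = 1.86e-05 at 6 h and log2 fold change -0.52, SE 0.14, adjusted p = 0.00495 from 6 h to 72 h).

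The loop of 90 kb at MYO1D (chr17:32780001-32790000 to chr17:32870001-32880000) fell at 6 h and rose again. The libraries had normalized counts of 101, 119, 92.8 and 77.3 at 0 h, 57.8, 61.7, 67.9 and 55.5 at 6 h, and 84.0, 68.3, 88.4 and 74.1 at 72 h. All 6 h libraries lay below all libraries of both other times, while 0 h and 72 h overlapped. The fall at 6 h passed the test (log2 fold change -0.70, SE 0.13, adjusted p = 9.45e-05), and so did the rise from 6 h to 72 h (log2 fold change 0.38, SE 0.14, adjusted p = 0.0349), although both comparisons use the same 6 h libraries. The loop was picked for its fall at 6 h, and the later rise was not checked with left-out libraries.

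**Figure D2:**
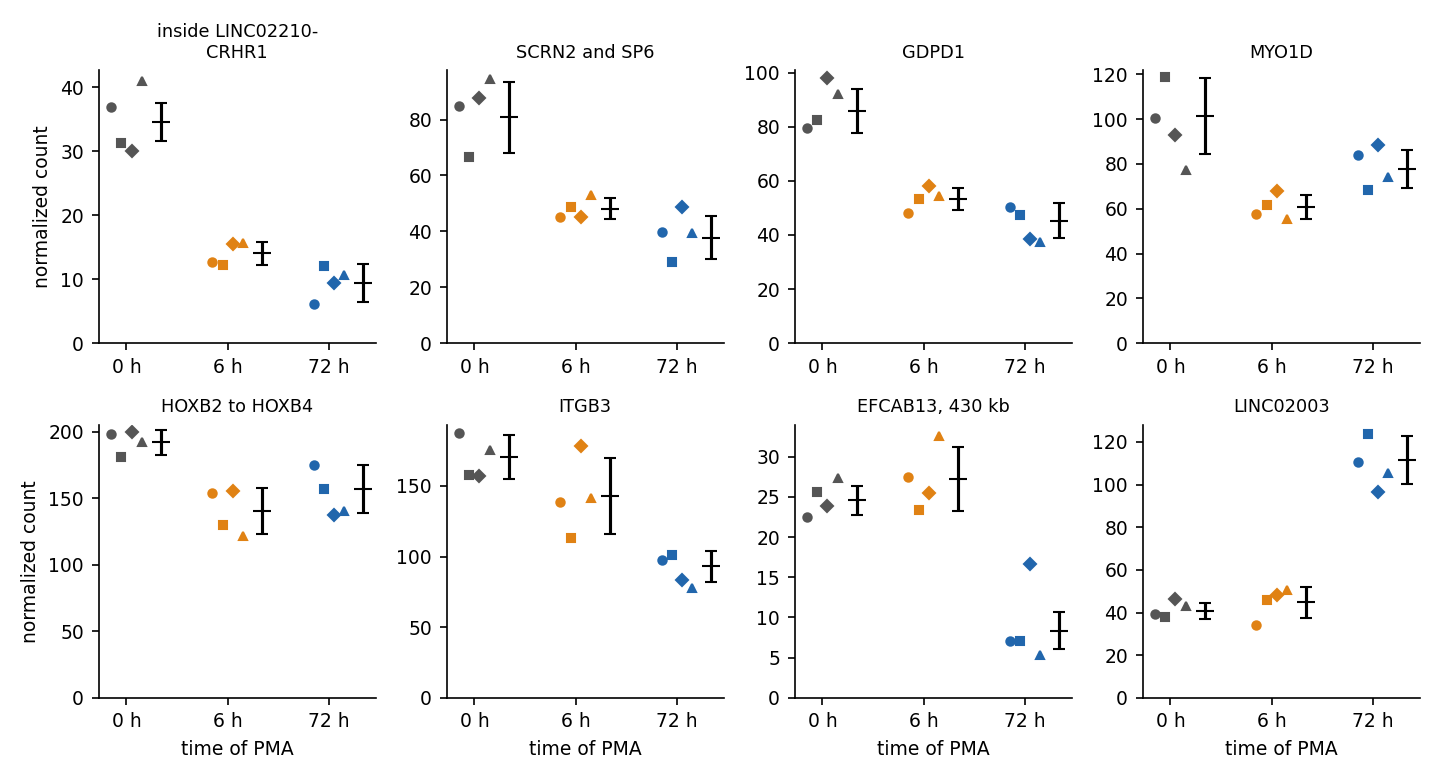
Normalized counts (contacts per 1000000 contacts in tested loops, vertical axes from 0) of 8 chromosome 17 loops in each library at 0 h, 6 h and 72 h, named by a gene at an anchor; circles, squares, diamonds and triangles are replicates 1 to 4, and black bars give mean ± SD (n = 3, 4 and 3). The loops of the upper row and HOXB2 to HOXB4 fell at 6 h, MYO1D rose again by 72 h, and ITGB3 and EFCAB13 fell and LINC02003 rose from 6 h to 72 h.

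Rises at 6 h were fewer. The largest was a loop of 450 kb from inside CDC27, a subunit of the anaphase-promoting complex, to inside NPEPPS, a cytosolic aminopeptidase. Its normalized counts were 13.0, 15.2, 12.5 and 1.14 at 0 h, 19.6, 16.8, 25.5 and 36.2 at 6 h, and 29.2, 27.1, 20.8 and 18.7 at 72 h. The 0 h libraries all lay below the others, with replicate 4 of 0 h lowest. The call (log2 fold change 1.11, SE 0.27, adjusted p = 0.00431) was lost without 0 h replicate 4 (adjusted p = 0.0608) or without 6 h replicate 4 (0.0696). A loop of 580 kb with no gene end in its anchors (chr17:61630001-61640000 to chr17:62210001-62220000) rose at 6 h and fell back. It had 15.7 ± 3.98 at 0 h (SD, n = 3), 28.6 ± 3.30 at 6 h (n = 4) and 17.3 ± 4.62 at 72 h (n = 3), as normalized counts. Both steps were called (log2 fold change 0.92, SE 0.23, adjusted p = 0.00582 at 6 h and log2 fold change -0.65, SE 0.22, adjusted p = 0.0254 from 6 h to 72 h), against the same 6 h libraries. The later call was not checked with left-out libraries. A loop of 140 kb from inside PITPNM3, a phosphatidylinositol transfer protein, to inside KIAA0753, a centriolar protein, rose from 26.0 ± 2.66 (SD, n = 3) to 43.7 ± 13.2 (SD, n = 4) (log2 fold change 0.77, SE 0.19, adjusted p = 0.00364, or 0.0625 without 6 h replicate 4). The calls of the other 2 of the 5 largest rises were less stable. A loop of 350 kb between FAM222B and MYO18A (log2 fold change 0.92, SE 0.29, adjusted p = 0.0321) lost its call without 0 h replicate 1, 2 or 4 or 6 h replicate 1, 2 or 3, with an adjusted p of up to 0.195, and with the length correction (0.0578). A loop of 500 kb at chr17:5910001-5920000 (log2 fold change 0.80, SE 0.27, adjusted p = 0.0482) lost it on leaving out any library but 72 h replicate 1, with up to 0.135, with the length correction (0.106) and with replicates 3 and 4 summed (0.0529 to 0.0621).

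From 6 h to 72 h the loops of chromosome 17 that changed mostly fell. The chromosome was chosen by its falls at 72 h, and this step uses the same 72 h libraries. Its direction and its largest falls are therefore not independent of that choice. Of the 859 tested, 183 changed (21.3%, with 20.5% in the whole table), 149 downward (17.3%, with 9.81%) and 34 upward (3.96%, with 10.7%). The median log2 fold change was -0.14, against 0.0001 over all 24132 tested loops, and was -0.60 in the loops that fell and 0.69 in those that rose. All 72 h libraries lay below all 6 h libraries in 144 loops (16.8%, with 9.43% in the whole table) and above them in 41 (4.77%, with 10.4%). DESeq2 called 77 (63 fell, 14 rose). Within replicates 1 and 2 there were 89 (74 fell, 15 rose), and within replicates 3 and 4 there were 59 (46 and 13). The excess of falls was not particular to chromosome 17. On chromosome 19 20.4% of tested loops fell and 1.24% rose in this step (median log2 fold change -0.17). Chromosome 22 had 17.8% and 4.82% (median -0.14), and chromosome 18 had 10.1% and 7.03% (median -0.04).

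The largest fall of this step lay near the gene of the platelet integrin chain ITGB3. A loop of 400 kb from inside EFCAB13, a gene of an EF-hand protein, to an anchor free of gene ends (chr17:47360001-47370000 to chr17:47760001-47770000) had normalized counts of 26.1, 24.7, 23.8 and 23.9 at 0 h, 25.5, 32.7, 16.98 and 15.7 at 6 h, and 7.96, 11.0, 1.04 and 5.36 at 72 h. All 72 h libraries lay below the others, and 72 h replicate 3 rested on a single contact. Its log2 fold change was -0.07 at 6 h and -1.86 from 6 h to 72 h (SE 0.30, edgeR adjusted p = 9.21e-07). A nearly parallel loop of 430 kb, 1 and 2 bins away at its ends, had normalized counts of 22.5, 25.6, 23.8 and 27.3 at 0 h, 27.5, 23.4, 25.5 and 32.6 at 6 h, and 7.08, 7.03, 16.6 and 5.36 at 72 h. It fell as well (log2 fold change -1.61, SE 0.27, adjusted p = 1.74e-06), with 72 h replicate 3 the highest of its time. Neighbouring pairs of 10 kb bins may count the same contact zone, so the pair cannot be read as independent.

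At lower coordinates, a loop of 80 kb ends on ITGB3, which encodes the beta chain of the fibrinogen receptor of platelets. The libraries had normalized counts of 188, 158, 157 and 175 at 0 h, 138, 113, 178 and 141 at 6 h, and 97.3, 101, 83.2 and 77.7 at 72 h. The 72 h libraries lay below all others and those of 6 h overlapped 0 h. It fell from 6 h to 72 h (log2 fold change -0.64, SE 0.12, adjusted p = 1.01e-05), and its difference at 6 h missed the threshold (log2 fold change -0.28, SE 0.10, adjusted p = 0.0839). In the 14 tested loops between chr17:46950001 and chr17:47990000, an interval chosen after its values were seen, 4 fell and 0 rose from 6 h to 72 h, and 0 fell and 1 rose at 6 h. The 4 falls include the nearly parallel pair. From 6 h to 72 h 17.3% of all tested chromosome 17 loops fell and 3.96% rose, with 9.81% and 10.7% in the whole table. At 6 h these shares were 5.36% and 1.51%, with 4.07% and 2.34%.

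A second group of falls lay around the busiest anchor of the chromosome. Between chr17:20760001 and chr17:21520000, an interval also chosen after its values were seen, 20 of 25 loops were tested, and from 6 h to 72 h 8 fell and 0 rose, with a median log2 fold change of -0.43. On the whole chromosome 17.3% of tested loops fell, and 9.81% in the whole table. A loop of 520 kb (chr17:20950001-20960000 to chr17:21470001-21480000) fell from 13.4 ± 2.39 (SD, n = 4) to 4.01 ± 2.14 (SD, n = 3) (log2 fold change -1.68, SE 0.39, adjusted p = 7.40e-04). One of 660 kb fell from 14.5 ± 3.59 (SD, n = 4) to 4.77 ± 0.671 (SD, n = 3) (log2 fold change -1.57, SE 0.37, adjusted p = 9.59e-04). Both counts are low, with 2 to 17 contacts in single libraries. A loop of 370 kb starts at DHRS7B, a peroxisomal reductase of ether lipid synthesis. It had normalized counts of 17.4, 18.04, 28.9 and 21.6 at 0 h, 21.6, 22.4, 25.5 and 15.7 at 6 h, and 7.96, 3.01, 6.24 and 15.2 at 72 h. The 72 h libraries lay below all others (log2 fold change -1.34, SE 0.29, adjusted p = 2.80e-04). From the same anchor the loop of 140 kb also fell (log2 fold change -0.70, SE 0.17, adjusted p = 0.00141). At USP22, the deubiquitinase of the SAGA complex, the loop of 200 kb from the busiest anchor fell (log2 fold change -0.62, SE 0.23, adjusted p = 0.0435), a call not checked with left-out libraries. That of 50 kb was not called (log2 fold change -0.11, SE 0.15, adjusted p = 0.653). Further out on the short arm, a loop of 300 kb (chr17:14250001-14260000 to chr17:14550001-14560000) fell from 13.4 ± 2.35 (SD, n = 4) to 4.92 ± 1.97 (SD, n = 3) (log2 fold change -1.35, SE 0.37, adjusted p = 0.00441).

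Of the 34 rises from 6 h to 72 h, 9 lay in the window of 70 to 75 Mb, where SOX9, the gene of a developmental transcription factor, borders a gene desert. The window did not rise as a whole: of its 51 tested loops 5 fell, and its median log2 fold change was -0.08. The largest rise was a loop of 80 kb (chr17:72340001-72350000 to chr17:72420001-72430000) with the promoter of the noncoding RNA LINC02003 in its first anchor. Its normalized counts were 39.1, 38.0, 46.4 and 43.2 at 0 h, 34.3, 45.8, 48.1 and 50.7 at 6 h, and 111, 123, 96.7 and 105 at 72 h. All 72 h libraries were far above all others, which overlapped (log2 fold change 1.30, SE 0.14, adjusted p = 2.98e-14). The next loop, 150 kb long and ending inside the zinc transporter gene SLC39A11, rose from 37.8 ± 5.39 (SD, n = 4) to 67.5 ± 6.41 (SD, n = 3) (log2 fold change 0.84, SE 0.15, adjusted p = 1.17e-05). All 4 tested loops between chr17:72140001 and chr17:72920000, chosen after their values were seen, rose from 6 h to 72 h, by log2 fold changes of 0.58 to 1.30, and 0 of them were called at 6 h. From 6 h to 72 h 3.96% of all tested chromosome 17 loops rose, and 10.7% of the whole table. A loop of 1780 kb (log2 fold change 1.03, SE 0.38, adjusted p = 0.0397) and one of 1910 kb (log2 fold change 0.89, SE 0.28, adjusted p = 0.0164) end in the same interval. Their calls were lost with DESeq2 (adjusted p = 0.139 and 0.0985) and with the length correction (0.248 and 0.255). The first was also lost with replicates 3 and 4 summed at 0 h and 72 h (0.0502) and without 6 h replicate 1, 2 or 4 or 72 h replicate 3 or 4 (up to 0.156), and the second without 6 h replicate 1 or 4 (up to 0.1004).

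Elsewhere, a loop of 290 kb from inside MSI2, an RNA-binding protein of blood stem cells, to CCDC182 (chr17:57450001-57460000 to chr17:57740001-57750000) had normalized counts of 28.2, 31.3, 23.8 and 39.8 at 0 h, 23.5, 29.0, 25.5 and 32.6 at 6 h, and 62.8, 48.2, 65.5 and 42.0 at 72 h. The 72 h libraries lay above all others (log2 fold change 0.98, SE 0.18, adjusted p = 9.64e-06). A loop of 1100 kb on the short arm, whose second anchor lies inside ZNF18, a zinc-finger gene, rose from 9.73 ± 2.74 (SD, n = 4) to 22.7 ± 2.26 (SD, n = 3) (log2 fold change 1.18, SE 0.28, adjusted p = 7.90e-04).

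For 72 h against 0 h, the contrast that chose the chromosome, 328 loops were past the threshold (38.2%, with 33.6% in the whole table). Of these 264 were lower (30.7%, with 16.9%) and 64 higher (7.45%, with 16.7%), and the median log2 fold change was -0.22, against 0.01 over all tested loops. The choice of the chromosome fixed the direction of these counts, and nothing is read from them. The 5 largest falls were those of EFCAB13 at 400 kb (-1.93) and 430 kb (-1.47), of LINC02210-CRHR1 (-1.87), of a loop of 550 kb ending inside TOM1L2, a gene of an endosomal sorting protein (-1.31), and of the loop of 520 kb at the busy short-arm region (-1.31). At 6 h the log2 fold changes of these 5 were -0.07, 0.14, -1.34, -0.26 and 0.37 in that order, so that at LINC02210-CRHR1 most of the difference was already there. The 5 largest rises were LINC02003 (1.40), a loop of 650 kb starting inside GAS7 (1.31), one of 630 kb at chr17:14290001-14300000 (1.24), one of 220 kb at WSCD1 (1.17) and the ZNF18 loop (1.14). GAS7 encodes a protein of the growth-arrest-specific group. Its loop had normalized counts of 10.1 ± 3.04 at 0 h (SD, n = 3), 16.7 ± 3.51 at 6 h (n = 4) and 25.6 ± 2.02 at 72 h (n = 3). The WSCD1 loop had 11.7 ± 1.58 at 0 h (SD, n = 3), 17.8 ± 5.35 at 6 h (n = 4) and 26.8 ± 5.04 at 72 h (n = 3).

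The change depended on loop length in the whole table, so chromosome 17 was set beside all loops class by class. At 6 h the medians lay close: among loops up to 100 kb the median log2 fold change was -0.13 on chromosome 17 (213 loops) and -0.12 in the table, and among those of 400 to 800 kb it was 0.15 (157 loops) and 0.11. Of the 46 falls at 6 h on chromosome 17, 31 were among its 213 tested loops up to 100 kb. The share was similar in the whole table, where 463 of 3310 tested loops of that class fell. From 6 h to 72 h the chromosome lay lower in each class. The medians were -0.09 against -0.04 up to 100 kb, -0.16 against -0.02 at 100 to 200 kb, -0.25 against -0.03 at 200 to 400 kb, and -0.13 against 0.01 at 400 to 800 kb. They were 0.05 against 0.28 above 800 kb, where chromosome 17 had only 29 tested loops.

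**Figure D3:**
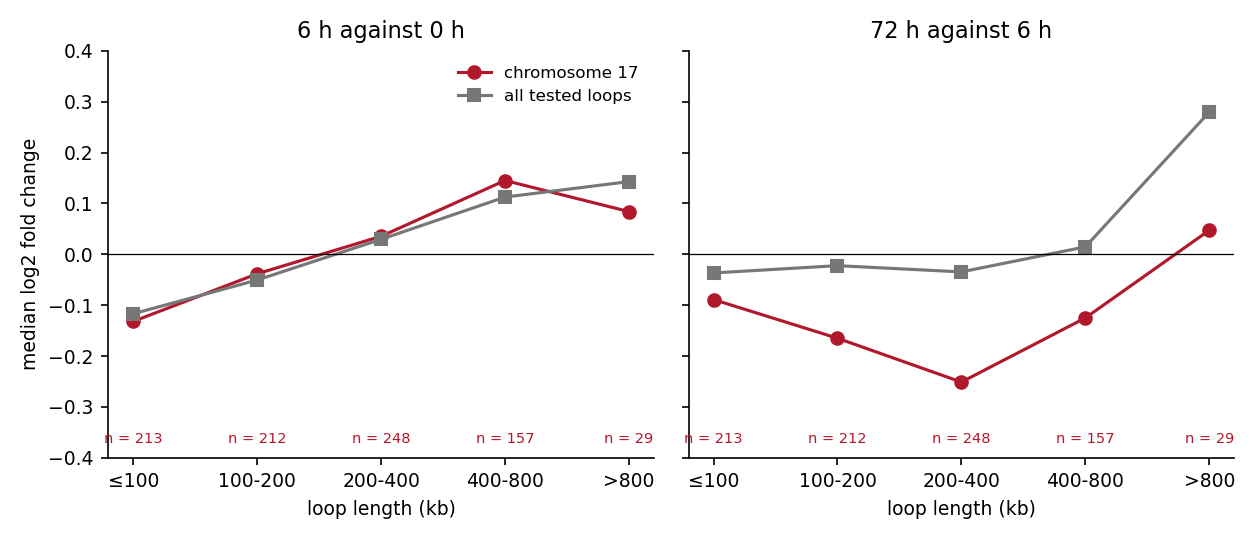
Median log2 fold change (vertical axis) of tested loops by length class in kb (horizontal axis), for 6 h against 0 h (left) and 72 h against 6 h (right); red circles are chromosome 17, with its number of loops printed below, and grey squares all tested loops. The points lie close at 6 h, and chromosome 17 lies below all loops in each class from 6 h to 72 h.

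Along the chromosome, falls from 6 h to 72 h were found in all windows, and rises in 10 of them. In 17 windows of 5 Mb, each with at least 20 tested loops, the median log2 fold change was below 0 in 15, and was between -0.30 and 0.20. At 6 h it was below 0 in 12 windows and within -0.10 and 0.10. The lowest window at 72 h against 0 h was the sixth, 25 to 30 Mb, with a median of -0.39 over 47 loops, and the highest was the third, 10 to 15 Mb, with 0.20 over 38. In the later step, 72 h against 6 h, these gave -0.19 (1 rose, 12 fell) and 0.20 (6 rose, 2 fell). The third window has longer loops, with a median of 315 kb against 240 kb in the sixth. Its share of the contacts of chromosome 17 went from 1.68% ± 0.042 (SD, n = 3) at 0 h to 1.80% ± 0.114 (n = 4) at 6 h and 2.26% ± 0.027 (n = 3) at 72 h. Taken over 10 Mb, the stretch that holds it turned to -0.23. The tenth window, 45 to 50 Mb, with the HOXB cluster, ITGB3 and the Sp factors, had 19 falls and 0 rises from 6 h to 72 h. It also had the most tested loops, 69, and the last window had a larger share of falls, 11 of 38. On the short arm 38 of 251 tested loops fell and 11 rose from 6 h to 72 h (median -0.17), and on the long arm 111 of 608 fell and 23 rose (median -0.14).

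**Figure D4:**
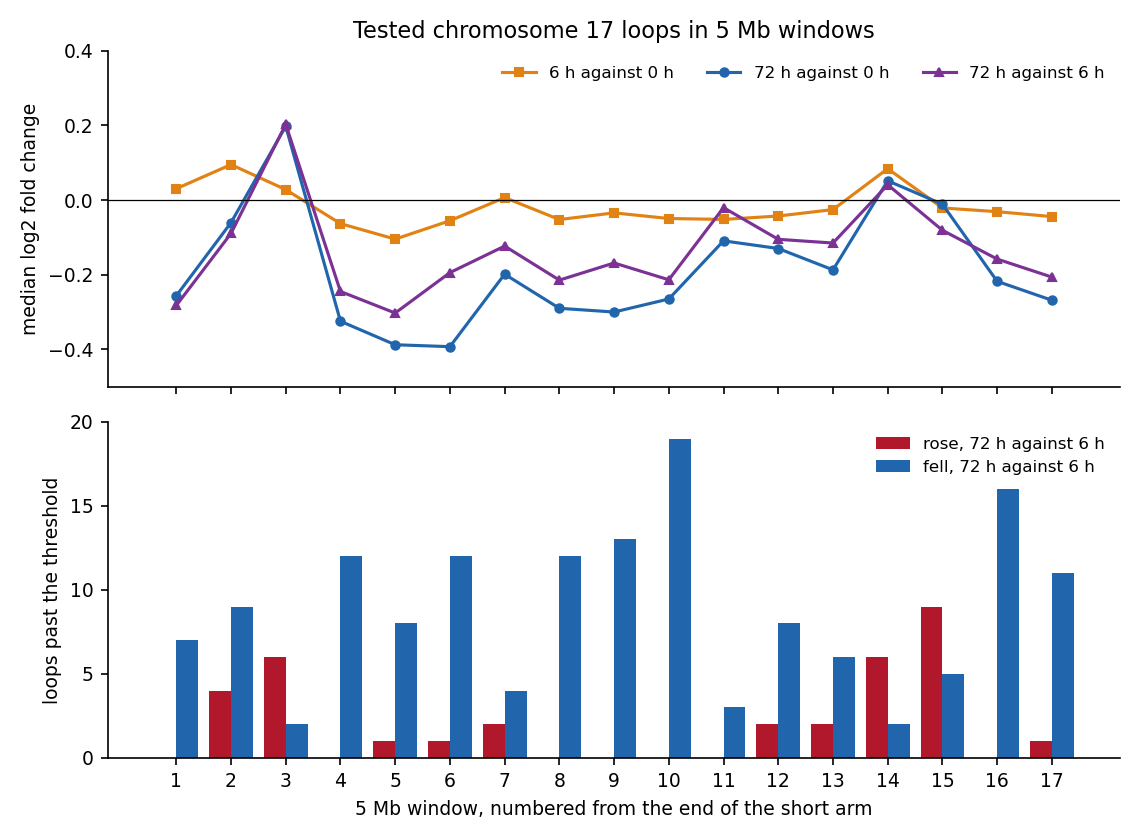
Tested chromosome 17 loops in 17 windows of 5 Mb, numbered from the end of the short arm (horizontal axis); the upper panel shows the median log2 fold change of each comparison, and the lower panel counts the loops past the threshold from 6 h to 72 h. Windows 3 and 14 have medians above 0 at 72 h, and the bar of window 10, which has the most tested loops (69), shows 19 falls.

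Loops that share an anchor are not independent. From 6 h to 72 h, 39 pairs of called loops shared an anchor, and 35 of them moved the same way. In that step 149 of the 183 called loops fell, so many pairs would move alike without a shared anchor. At 6 h there were 5 such pairs, with 4 alike, and 46 of the 59 called loops fell. The agreement was not set against pairs without a shared anchor.

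Of 83 genes in 10 lists of blood, signalling and clustered gene families, 33 had an end in an anchor of a tested loop, through 40 loops. At 6 h 4 of the 40 fell and 0 rose, against 4.07% and 2.34% of all tested loops. Of the tested chromosome 17 loops 5.36% fell and 1.51% rose at 6 h. From 6 h to 72 h 10 of the 40 fell and 0 rose, against 9.81% and 10.7% of all tested loops. In this later step 17.3% of the tested chromosome 17 loops fell and 3.96% rose. Their median log2 fold changes were -0.05 and -0.16, close to the -0.03 and -0.14 of all tested chromosome 17 loops. With gene ends up to 10 kb from an anchor, 70 loops were counted, of which 6 fell and 1 rose at 6 h, and 16 fell and 3 rose from 6 h to 72 h. With the length correction 1 of the 4 falls at 6 h passed the threshold.

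Of the 5 platelet and megakaryocyte genes, ITGB3, PECAM1 and ALOX12 had tested loops and GP1BA and ITGA2B had none. Of 4 loops, 2 fell from 6 h to 72 h, a step in which 17.3% of all tested chromosome 17 loops fell and 9.81% of the table: that of ITGB3, described above, and the longer of a pair at PECAM1, the adhesion molecule CD31 of platelets and endothelium. This loop of 330 kb (chr17:64310001-64320000 to chr17:64640001-64650000) had normalized counts of 56.5, 35.1, 32.6 and 38.7 at 0 h, 32.4, 36.4, 36.8 and 27.7 at 6 h, and 15.9, 16.1, 16.6 and 25.9 at 72 h. The 72 h libraries lay below all others (log2 fold change -0.83, SE 0.21, adjusted p = 0.00247). The other PECAM1 loop, 170 kb from the same anchor, had 48.0 ± 2.57 at 0 h (SD, n = 3), 51.5 ± 3.33 at 6 h (n = 4) and 43.6 ± 7.90 at 72 h (n = 3) and did not pass the test (log2 fold change -0.22, SE 0.16, adjusted p = 0.330). The loop of 320 kb at ALOX12, the platelet lipoxygenase, had a log2 fold change of 0.07 (SE 0.22) (adjusted p = 0.853).

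Of the erythroid genes, SLC25A39, a mitochondrial carrier needed for heme synthesis, had 1 tested loop. It spans 110 kb and starts inside UBTF, the factor of ribosomal RNA transcription (chr17:44210001-44220000 to chr17:44320001-44330000), with normalized counts of 149.9, 136, 142 and 161 at 0 h, 131, 97.2, 120.3 and 109.8 at 6 h, and 116, 141, 129 and 114 at 72 h. The 6 h libraries lay below the 0 h libraries (log2 fold change -0.36, SE 0.11, adjusted p = 0.0241), and 72 h overlapped both. Leaving out 0 h replicate 1, 0 h replicate 4 or 6 h replicate 2 lost the call (adjusted p up to 0.141), as did DESeq2 (0.0776) and the length correction (0.0851).

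Of the signalling genes, 5 loops at MAP2K3, MAP3K3, SOCS3 and GRB2 were tested, and 1 changed. The loop of 80 kb inside GRB2, the adaptor between receptors and Ras, had normalized counts of 133, 141, 157 and 133 at 0 h, 115, 98.1, 105 and 112 at 6 h, and 112, 111, 97.8 and 96.4 at 72 h. All 6 h libraries lay below all 0 h libraries (log2 fold change -0.39, SE 0.11, adjusted p = 0.0172), and 6 h and 72 h overlapped (log2 fold change -0.04, SE 0.11, adjusted p = 0.850). This call was lost without 0 h replicate 3 (adjusted p = 0.0691) or 6 h replicate 2 (0.0722), with DESeq2 (0.0555) and with the length correction (0.0959). The pair at SOCS3, the feedback inhibitor of cytokine signalling, had log2 fold changes of -0.13 (SE 0.12) and -0.04 (SE 0.12) at 6 h (adjusted p = 0.580 and 0.895). Those at MAP2K3 and MAP3K3, kinases of the stress pathways, had -0.12 (SE 0.19) and 0.18 (SE 0.17) (adjusted p = 0.773 and 0.598).

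At the HOXB cluster of developmental regulators 6 loops were tested. The loop of 30 kb between the ends of HOXB2 and HOXB3 and those of HOXB4 and MIR10A, the gene of the microRNA printed above (chr17:48540001-48550000 to chr17:48570001-48580000), had normalized counts of 198, 181, 199 and 192 at 0 h, 154, 129.9, 156 and 122 at 6 h, and 175, 157, 137 and 140.1 at 72 h. All 6 h and 72 h libraries lay below all 0 h libraries, and the fall came at 6 h (log2 fold change -0.46, SE 0.10, adjusted p = 0.00111, or 0.0578 with the length correction). The other loops of the cluster and of HOXB13 were not called at 6 h. The loop of 260 kb from inside SKAP1 to HOXB3, HOXB5 and HOXB6 went from 114 ± 8.01 (SD, n = 4) to 90.7 ± 10.7 (SD, n = 3) (log2 fold change -0.32, SE 0.12, adjusted p = 0.0384), a call lost without 6 h replicate 1 or 2 or 72 h replicate 2 or 4 (up to 0.164) and with DESeq2 (0.115). That of 150 kb at HOXB13 went from 84.1 ± 7.03 (SD, n = 4) to 58.4 ± 5.31 (SD, n = 3) (log2 fold change -0.50, SE 0.13, adjusted p = 0.00311). The remaining 3, at HOXB6, HOXB7 and HOXB13, had log2 fold changes from 6 h to 72 h of -0.30, -0.12 and 0.18 and did not pass the test.

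The transcription factors had 11 tested loops, and 4 of them fell from 6 h to 72 h with 0 rising, against 17.3% and 3.96% of all tested chromosome 17 loops and 9.81% and 10.7% of the table. At RARA, the retinoic acid receptor alpha of myeloid differentiation, 3 of 4 loops fell. That of 180 kb (chr17:40350001-40360000 to chr17:40530001-40540000) had normalized counts of 88.4, 110.1, 107 and 80.7 at 0 h, 93.1, 78.5, 66.5 and 86.9 at 6 h, and 63.7, 54.2, 45.8 and 51.8 at 72 h, with all 72 h libraries lowest (log2 fold change -0.60, SE 0.14, adjusted p = 6.47e-04). Those of 150 kb (log2 fold change -0.55, SE 0.15, adjusted p = 0.00502) and 230 kb (log2 fold change -0.52, SE 0.16, adjusted p = 0.0108, or 0.0804 without 6 h replicate 2 and 0.0743 with DESeq2) fell too. The short loop of 50 kb within the gene did not pass the test (log2 fold change -0.16, SE 0.10, adjusted p = 0.271). The loop of 130 kb at IKZF3, the lymphoid factor Aiolos, had normalized counts of 135, 117, 119 and 124 at 0 h, 141, 128, 147 and 141 at 6 h, and 80.5, 76.3, 95.7 and 86.6 at 72 h. All 72 h libraries lay far below both earlier times (log2 fold change -0.71, SE 0.11, adjusted p = 6.10e-07). The loop of 420 kb at SOX9, which opens on the rising interval above, had 10.8 ± 2.33 at 0 h (SD, n = 3), 13.1 ± 2.06 at 6 h (n = 4) and 16.4 ± 3.88 at 72 h (n = 3) (log2 fold change 0.39, SE 0.27, adjusted p = 0.325). The loops at ETV4 and TBX2 were not called in this step. The Sp factors are described above.

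The other lists held fewer changes. Of 4 keratin loops, that of 700 kb between KRT10 and KRT19, structural proteins of epithelia, fell from 6 h to 72 h (log2 fold change -0.62, SE 0.21, adjusted p = 0.0252), a call lost without 6 h replicate 3 or 4 or 72 h replicate 1 or 2 (up to 0.147) and with DESeq2 (0.112). The single tested loop at a granule gene, 250 kb at EPX, the eosinophil peroxidase, fell from 47.7 ± 10.1 (SD, n = 4) to 34.2 ± 2.38 (SD, n = 3) (log2 fold change -0.44, SE 0.17, adjusted p = 0.0471). This call was lost without 6 h replicate 3, 72 h replicate 1, 2 or 4, or 6 h replicate 4, the last giving the highest adjusted p, 0.2702. It was also lost with DESeq2 (0.158), the length correction (0.0583), library totals (0.0537) and replicates 3 and 4 summed at every time (0.0588). The 5 loops at CC chemokines had median log2 fold changes of 0.09 at 6 h and -0.14 from 6 h to 72 h, the 3 at chromobox genes of Polycomb complexes -0.15 and -0.05, and none of these 8 passed the edgeR test in either step. No muscle myosin gene had an end in an anchor of a tested loop.

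**Figure D5:**
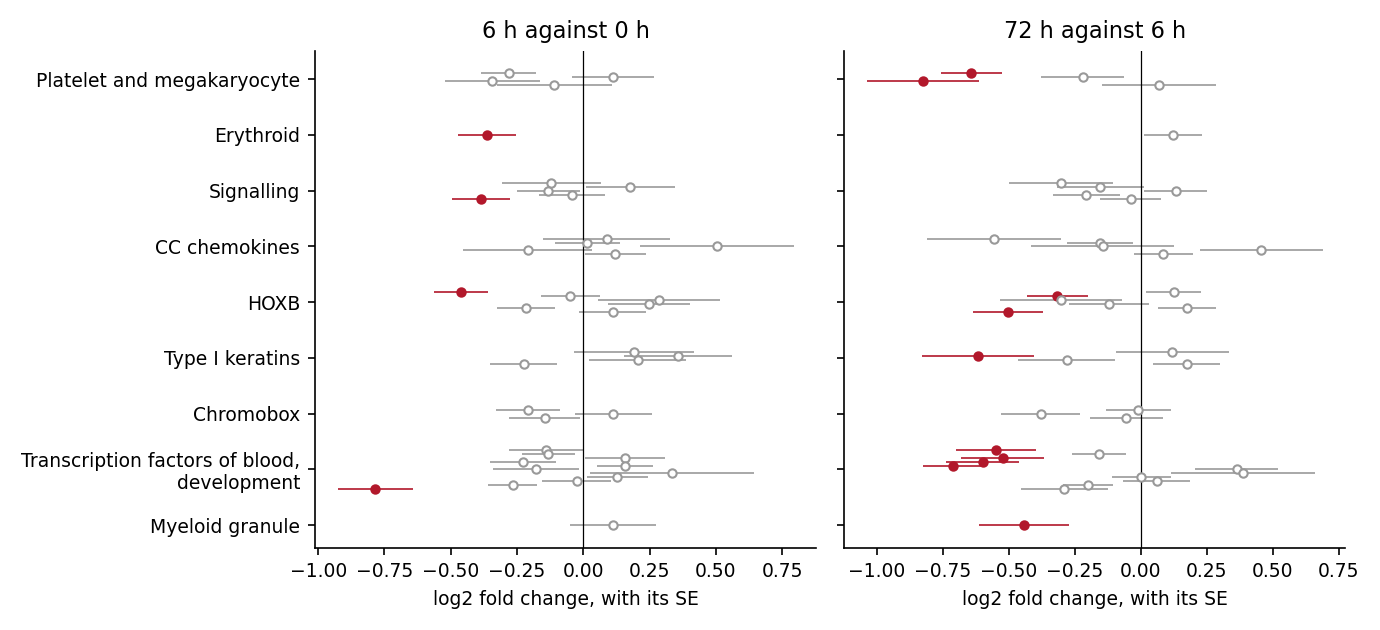
Log2 fold change (horizontal axes) with its SE of the 40 tested chromosome 17 loops at genes of the lists (vertical axis), for 6 h against 0 h (left) and 72 h against 6 h (right); 1 point per loop, filled red where the adjusted p was under 0.05. All filled points lie below 0: 4 at 6 h and 10 from 6 h to 72 h.

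Besides the SCRN2 to SP2 loop, the highest mean counts belonged to a loop of 120 kb at NXPH3, a neurexophilin, with 224 ± 26.8 at 0 h (SD, n = 3), 207 ± 12.4 at 6 h (n = 4) and 192 ± 24.0 at 72 h (n = 3). Next came one of 50 kb from PPY to the inside of PYY, genes of gut peptide hormones, with 211 ± 34.6 at 0 h (SD, n = 3), 199.7 ± 25.6 at 6 h (n = 4) and 184 ± 5.62 at 72 h (n = 3). Neither passed the test at 6 h (adjusted p = 0.550 and 0.564) or from 6 h to 72 h (adjusted p = 0.407 and 0.439).

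The authors' deposited table classes 19 of the 939 loops as gained (2.02%, with 2.95% of all 33914), 27 as lost (2.88%, with 1.48%) and 893 as static (95.1%, with 95.6%). These classes and the fit used here rest on the same counts. Of the 27 loops of the lost class 9 fell here at 6 h and 21 from 6 h to 72 h, and of the 19 of the gained class 3 and 13 rose.

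Promoters in anchors that fell at 6 h were searched on both strands for both motifs named above, which do not overlap each other in the sequences printed. Of 39 such promoters, 5 (12.8%) held AP-1 and 4 (10.3%) held GATA. All GATA shares count the form AGATAA only and miss other forms of the motif. Among all 34943 promoters of the RefSeq table the shares were 7.72% and 10.4%, and among the 374 promoters in chromosome 17 anchors both were 6.42%. The 39 promoters belong to 34 gene symbols, and anchors of 10 kb extend beyond the promoters. The SPACA3 loop, with its AP-1 motif, had a log2 fold change of -0.53 at 6 h, and the HEXIM1 loop, with its GATA motif, -0.39.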

How the data were processed

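Counts of Hi-C contacts per loop and technical library were taken from the authors' deposited summary table, with 10 kb anchor positions on hg38. Per the submitters' processing notes, Juicer 1.5.6, DESeq2 and hg38 were used, with roles not given in the sources used here. The authors' deposited loop classes, log2 fold changes and p-values were not recomputed, and only the classes are quoted. Contacts were summed over technical replicates to 12 libraries (33363 to 69292 contacts on chromosome 17), and 1 chromosome 17 loop with reversed anchors was reordered. Loops passing filterByExpr (minimum count 10, minimum total 15) were tested with edgeR 4.0.16 in R 4.3.3 (TMM, quasi-likelihood, Benjamini-Hochberg over 24132 loops, threshold 0.05). The fit was tested on simulated data. Alternatives were DESeq2 1.42.0, other scalings, filters and thresholds, a loess length correction, summed replicates and left-out libraries. Promoters, microRNAs and gene positions came from RefSeq tables (GRCh38.p14). A CTCF pattern was also searched but is not reported, because it missed a common form of that motif.

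The members and gene lists were chosen with earlier results of these data known. Loops named are the 5 largest rises and falls called in each comparison, those with an end of a listed gene in an anchor, and the 3 with the highest mean counts. Others, and genes that only cover an anchor, were chosen after their values were seen.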

Additional observations from a re-analysis of the deposited data

Results flagged for a closer look

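Single libraries that stood apart were searched for at 6 h only, because 0 h and 72 h counted as 3 samples each. In 3 of the 66 groups of 4 libraries examined, 1 library of 6 h stood apart from the other 3 by Dixon's test at the 95% level, where chance alone gives about 3.3. The loop from SKAP1 to HOXB3, HOXB5 and HOXB6 had 126 normalized counts in replicate 2, while the others had 109.0 to 111. The loop from SKAP1 to HOXB6 and HOXB7 had 43.4 in replicate 4, against 56.6 to 58.9. The EPX loop had 62.7 in replicate 4, against 41.2 to 43.9, and its fall from 6 h to 72 h was not called without that library.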

How the results depend on the processing

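At 6 h against 0 h, 59 loops were called. DESeq2 called 17, the length correction 27, replicates 1 and 2 alone 14, replicates 3 and 4 alone 7, the stricter threshold of 0.01 20, and a minimum fold of 1.5 16. For 72 h against 0 h (328) these settings gave 198 with DESeq2, 197 and 164 within the replicate pairs, 202 and 132. For 72 h against 6 h (183) they gave 77, 89, 59, 89 and 106. Leaving out 1 library gave 26 to 58, 263 to 345 and 137 to 193. The median of 6 h against 0 h turned to 0.0095 with the length correction and 0.018 with library totals. That of 72 h against 0 h was -0.172 and -0.163 with these, -0.178 with a minimum count of 20, -0.261 with no filter and -0.185 within replicates 3 and 4. That of 72 h against 6 h was -0.122 with a minimum count of 20 and -0.187 with no filter. Without 1 library the medians were -0.0457 to -0.0084, -0.232 to -0.195 and -0.171 to -0.132. The share's difference at 6 h reversed to 0.0279 percentage points among loops of 200 to 800 kb. At 72 h against 0 h it was -0.419, -0.309 and -0.131 in the 3 length classes. From 6 h to 72 h, with 72 h replicates 3 and 4 kept separate, it was -0.372 (exact permutation test, adjusted p = 0.0438). Without 1 library it was -0.153 to -0.0608, -0.537 to -0.445 and -0.414 to -0.356. The lowest window was -0.354 with the length correction and -0.339 with library totals, and the 10 Mb stretch that holds the highest window had -0.232. For listed genes, ends within 10 kb gave 7, 26 and 19 called loops, any part of a gene 7 and 20 in the first 2 comparisons, and the length correction 1 at 6 h. The cause was not tested.

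Of 57 named calls, 12 were lost with DESeq2, 12 with the length correction and 2 with library totals, and none reversed. A further 5 had no adjusted p with DESeq2, so whether they pass there is not known. Calls outside the 57 were not checked in this way. Among them are the later steps of the MYO1D and TNRC6C loops and of the loop of 580 kb, and the calls at USP22 and DHRS7B. The main fit did not pair libraries by replicate number, since the labels give no pairing. The data hold a sign of it: 9 of 12 libraries were closest to their own number at both other times. The correlations between libraries of the same number were all above 0 but low (0.0146 to 0.124). With the replicate number as a block 77, 345 and 202 loops were called, and none of the 57 named calls changed. Some alternatives were chosen after seeing the data. Replicates 3 and 4 summed at 0 h and 72 h gave 53, 317 and 179 calls and lost 3 named calls, summed at every time 46, 315 and 167 and lost 4, and a prior count of 2 lost none. Depth limits single loops: at a count of 43 the counting interval alone is 31.1 to 57.9.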
